A study of Homo sapiens with 16 samples.

Results

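ARAF, TCF3, EWSR1, MADD, MST1R and ERBB2 are 6 genes that earlier work in other cells placed among the targets of HNRNPH splicing proteins. They were taken by symbol from both short-read expression tables and are 6 of the 61906 genes and 104 of the 251295 transcripts listed there. ARAF has 5 listed transcripts, TCF3 19, EWSR1 22, MADD 23, MST1R 13 and ERBB2 22. The measurements come from 2 established human lines, HT-1080, derived from a fibrosarcoma, and HEK-293T, derived from embryonic kidney and carrying SV40 large T antigen. Each line received 20 nM of a small interfering RNA directed at HNRNPH1 (siHNRNPH1) or a control one named siNegative, and RNA was collected 48 h later. No other agent or allele separates the siRNA groups within a line, which share the transfection reagent and the medium of that line. Comparisons between the lines also carry every other difference between them. Each group has 3 short-read libraries, which the labels call biological replicates, and 1 pool of full-length cDNA (IsoSeq). The p-values below measure the spread between those 3 libraries.

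HNRNPH1 is a nuclear RNA-binding protein that recognises runs of guanines in pre-mRNA and, depending on where they lie, favours or hinders the use of nearby exons. It has close relatives, HNRNPH2 and HNRNPF, with overlapping binding preferences. HNRNPH proteins have been reported to act on exons or introns of each of the 6 genes, for EWSR1 in fusion transcripts of Ewing sarcoma. The other genes make alternative proteins with different activities from those exons or introns. Both the total of each gene and its split among transcripts are therefore described.

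The expected counts summed to 107.7 to 121.0 M (mega) per library in HEK-293T and to 27.3 to 32.7 M in HT-1080, so the HT-1080 values rest on fewer counts. The targeted gene HNRNPH1 fell from 1107, 1105 and 1121 CPM (counts per M counts of the library) to 234, 376 and 394 CPM in HEK-293T, a log2 fold change of -1.76 (edgeR BH-adjusted p = 0.00939). HT-1080 levels were lower throughout, and HNRNPH1 fell from 635, 606 and 617 CPM to 232, 231 and 229 CPM, a log2 fold change of -1.49 (edgeR BH-adjusted p = 6.76e-09). Replicate 1 of the HEK-293T siHNRNPH1 group, the library with the lowest HNRNPH1 level, stood apart: across genes its log2 CPM correlated with replicates 2 and 3 at a Pearson r of 0.965 and 0.961, while every other pair within a group reached at least 0.995. Gene-level and usage tests in HEK-293T are therefore given with and without it. Without it, the log2 fold change of HNRNPH1 was -1.59 (edgeR BH-adjusted p = 6.94e-21). All 5 HEK-293T marker genes were at 1 CPM or more in HEK-293T, and PAX2, INA and SOX2 were below it in HT-1080. All 7 HT-1080 markers passed that level in HT-1080, where they summed to 7466 to 9719 CPM against 72.9 to 115 CPM in HEK-293T. PTPRC and CD3E, which mark leukocytes, summed to at most 0.0186 CPM in any library. The marker sums also differed between the siRNAs. In HT-1080 cells the HT-1080 list summed to 9347 to 9719 CPM with siNegative and to 7466 to 7599 CPM with siHNRNPH1, and the HEK-293T list to 129 to 137 CPM and 98.0 to 101 CPM. A list of 3 epithelial genes (EPCAM, KRT18 and CDH1) was higher with siHNRNPH1, at 329 to 376 against 429 to 442 CPM in HT-1080, where EPCAM and CDH1 were below 1 CPM, and at 47.8 to 48.9 against 56.5 to 122 CPM in HEK-293T. The part of these differences in the results below was not tested.

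At the level of whole genes, EWSR1 was lower with siHNRNPH1 in both lines, MADD, ERBB2 and TCF3 were higher in HT-1080, and ARAF was lower in HT-1080. In HEK-293T, 1 of the 6 genes passed the test, with a lower level, where 10.0% of all 19966 genes tested passed and 4.88% were lower. In HT-1080, all 5 of the genes tested passed, 3 higher and 2 lower, where 65.3% of all genes did, 32.7% higher and 32.6% lower. With so few genes the count cannot be set apart from that background, and the sizes and directions carry the description. Without replicate 1 of the HEK-293T siHNRNPH1 group, 3 of the 6 genes passed, all lower (61.8% of all genes passed, 31.3% lower). In these bulk libraries, fewer cells of a type and less RNA per cell cannot be told apart.

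**Figure D1:**
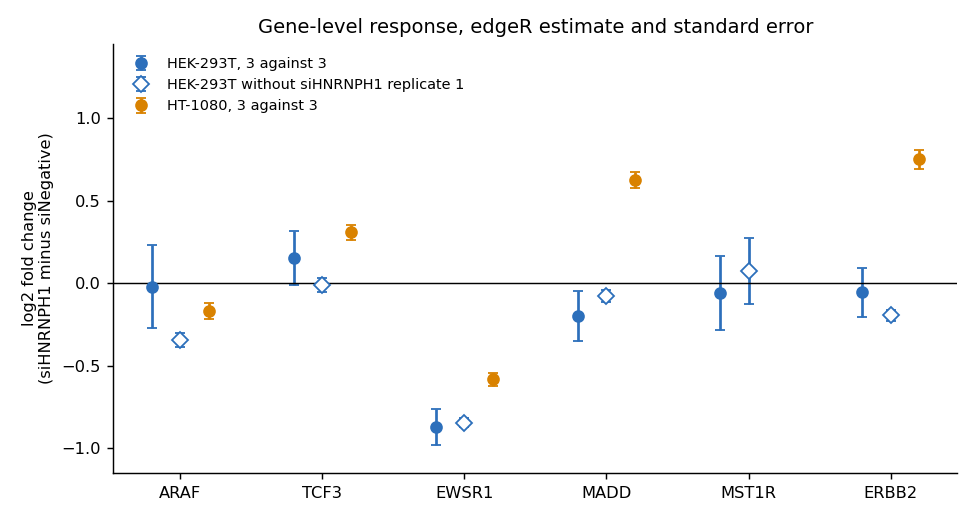
Log2 fold change of each gene (siHNRNPH1 minus siNegative, vertical axis) as estimated by edgeR, with bars of 1 standard error. Filled circles compare 3 libraries with 3 in HEK-293T (blue) and HT-1080 (orange), and open diamonds leave out replicate 1 of the HEK-293T siHNRNPH1 group. EWSR1 lies between -0.87 and -0.58 in all 3 estimates, while MADD and ERBB2 lie above 0 in HT-1080 only.

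EWSR1 encodes an RNA-binding protein of the FET family and is the 5′ partner in the fusion genes of Ewing sarcoma. Its level in HEK-293T was 572, 563 and 568 CPM with siNegative and 292, 331 and 326 CPM with siHNRNPH1. In HT-1080 it was 357, 358 and 359 CPM with siNegative and 251, 251 and 250 CPM with siHNRNPH1. The groups did not overlap in either line, and the order of the 4 groups, from HEK-293T siNegative through HT-1080 siNegative and HEK-293T siHNRNPH1 to HT-1080 siHNRNPH1, had no overlap between neighbours. The log2 fold change was -0.87 (SE 0.11, n = 3 per group, edgeR BH-adjusted p = 0.0104) in HEK-293T and -0.58 (SE 0.04, n = 3 per group, edgeR BH-adjusted p = 9.26e-07) in HT-1080. In HEK-293T the size hardly moved when single libraries were left out (-0.89 to -0.85), but the call was kept in only 2 of 6 such fits. It was lost without any 1 of the siNegative replicates and without siHNRNPH1 replicate 2 (edgeR BH-adjusted p up to 0.0948), whereas without siHNRNPH1 replicate 1 the adjusted p was 3.18e-17. The log2 fold change of HT-1080 was 0.22 above that of HEK-293T, which did not pass the edgeR interaction test (BH-adjusted p = 0.162) and did without HEK-293T siHNRNPH1 replicate 1 (0.21, BH-adjusted p = 0.00234).

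ARAF encodes a serine/threonine kinase of the RAF family that acts between RAS and MEK. In HEK-293T it measured 73.5, 74.7 and 70.3 CPM with siNegative and 98.1, 62.5 and 56.9 CPM with siHNRNPH1. Replicate 1 of siHNRNPH1 was the highest of the 6 libraries and replicates 2 and 3 were the lowest. The log2 fold change was -0.02 (SE 0.25, edgeR BH-adjusted p = 0.966) with all libraries and -0.34 (SE 0.04, edgeR BH-adjusted p = 1.38e-07) without replicate 1. In HT-1080 the level went from 75.8, 77.2 and 71.4 CPM to 69.6, 70.1 and 69.3 CPM, with no overlap (log2 fold change -0.17, SE 0.05, edgeR BH-adjusted p = 0.0103). That HT-1080 call was lost with scaling by library size alone (-0.10) and in the fit to all 12 libraries (-0.18).

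TCF3 encodes the E proteins E12 and E47, helix-loop-helix transcription factors of lymphocyte development and of E-cadherin repression. Its HEK-293T levels were 63.0, 62.3 and 58.9 CPM with siNegative and 80.9, 66.6 and 60.2 CPM with siHNRNPH1, which overlapped (log2 fold change 0.15, SE 0.16, edgeR BH-adjusted p = 0.600). In HT-1080 TCF3 rose from 55.3, 51.8 and 52.1 CPM to 69.1, 70.04 and 67.5 CPM (log2 fold change 0.31, SE 0.05, edgeR BH-adjusted p = 2.62e-04). All 3 knockdown libraries of HT-1080 lay above all 3 controls, and the call was lost in the fit to all 12 libraries (0.30). Without HEK-293T siHNRNPH1 replicate 1, the HEK-293T estimate was -0.01 (edgeR BH-adjusted p = 0.851). The response then differed between HEK-293T and HT-1080: it passed the edgeR interaction test (0.27, BH-adjusted p = 0.00462), which it did not with all libraries (0.08, BH-adjusted p = 0.849).

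MADD encodes a DENN-domain exchange factor for RAB3 that also binds TNF receptor family members and has pro- and anti-apoptotic splice forms. In HEK-293T it measured 70.7, 71.0 and 74.1 CPM with siNegative and 50.4, 73.0 and 69.0 CPM with siHNRNPH1. Replicate 1 was the lowest library and the others lay close to the controls (log2 fold change -0.20, SE 0.15, edgeR BH-adjusted p = 0.455). Without replicate 1 the log2 fold change was -0.0764 (edgeR BH-adjusted p = 0.0708). In HT-1080 MADD rose from 69.4, 63.6 and 70.1 CPM to 107, 110 and 111 CPM (log2 fold change 0.63, SE 0.05, edgeR BH-adjusted p = 2.39e-06). The response was higher in HT-1080 than in HEK-293T by 0.76 on the log2 scale (SE 0.15, edgeR interaction, BH-adjusted p = 0.00435).

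ERBB2 encodes the receptor tyrosine kinase HER2. Its HEK-293T levels were 60.6, 60.5 and 61.7 CPM with siNegative and 67.8, 56.1 and 54.7 CPM with siHNRNPH1, where replicate 1 was above the controls and replicates 2 and 3 below them. The log2 fold change was -0.05 (SE 0.15, edgeR BH-adjusted p = 0.849), and -0.19 (SE 0.03, edgeR BH-adjusted p = 4.40e-05) without replicate 1. In HT-1080 ERBB2 rose from 23.8, 23.5 and 25.3 CPM to 44.7, 41.2 and 42.3 CPM (log2 fold change 0.75, SE 0.06, edgeR BH-adjusted p = 2.01e-06). HT-1080 siNegative was the lowest of the 4 groups for ERBB2, HT-1080 siHNRNPH1 came next, and the HEK-293T groups, which overlapped each other, were highest. The response was 0.73 higher on the log2 scale in HT-1080 than in HEK-293T (SE 0.17, edgeR interaction, BH-adjusted p = 0.0129). MADD and ERBB2 were the 2 of 6 genes past that interaction test, where 19.0% of all genes passed it. Without HEK-293T siHNRNPH1 replicate 1, 4 of 6 did, against 49.0% of all genes.

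MST1R encodes RON, the receptor for macrophage-stimulating protein, and was close to the detection limit in both lines. It had 57 to 101 counts per HEK-293T library, 0.648, 0.620 and 0.834 CPM with siNegative and 0.529, 0.720 and 0.817 CPM with siHNRNPH1. The groups overlapped (log2 fold change -0.06, SE 0.22, edgeR BH-adjusted p = 0.897), also without siHNRNPH1 replicate 1 (0.07, edgeR BH-adjusted p = 0.776). HT-1080 libraries had 5 to 15 counts of it each, below the filter on low counts, and it was not tested there. At such counts no change of MST1R was detectable, and its transcript shares are not interpretable. The share of ENST00000296474.8 alone ran from 0 to 95.9% among HEK-293T siHNRNPH1 libraries.

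**Figure D2:**
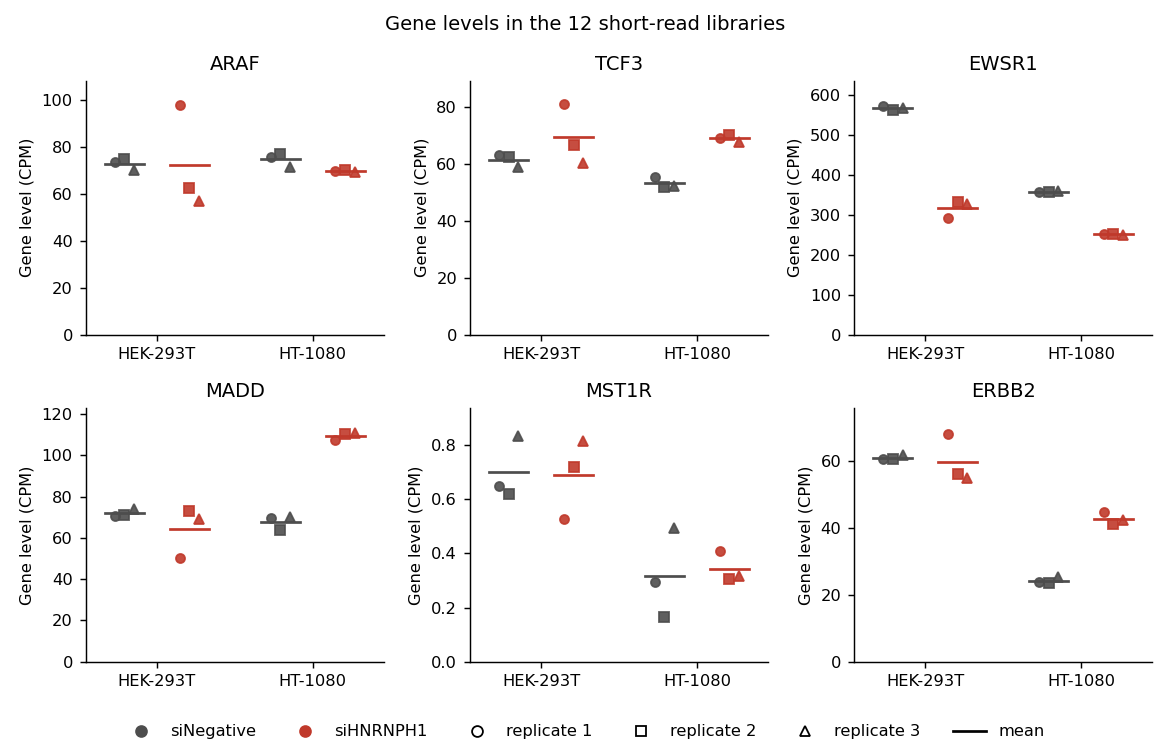
Level of each gene in CPM (vertical axes start at 0) in the 12 short-read libraries, by line and siRNA. Symbols mark the replicate and lines the mean of 3 libraries. EWSR1 separates the siRNAs in both lines, and HEK-293T siHNRNPH1 replicate 1 (red circle) lies apart from replicates 2 and 3 for ARAF, TCF3, MADD and ERBB2.

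Transcript usage, the split of a gene's expected counts among its transcripts, was tested with limma diffSplice. TCF3 and MADD passed in HEK-293T, 2 of 6 genes, where 9.59% of all genes tested did. TCF3, EWSR1 and MADD passed in HT-1080, 3 of the 5 genes tested, where 21.2% of all genes did. Without HEK-293T siHNRNPH1 replicate 1, every gene but MST1R passed in HEK-293T, 5 of 6, against 41.6% of all genes. The related test of edgeR, diffSpliceDGE, called 1 gene in HEK-293T (TCF3) and 0 in HT-1080, where 1 had an unadjusted p under 0.05.

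TCF3 showed the clearest change in usage. Its transcript ENST00000262965.12, which encodes E12, lost share with siHNRNPH1 in both lines, and ENST00000588136.7, which encodes E47, gained share. The names E12 and E47 come from general knowledge of these identifiers, not from the files, and TCF3 transcripts other than this pair are not assigned to either protein. The pair differs in mutually exclusive exons for the DNA-binding domain, and HNRNPH and HNRNPF proteins have been reported to act on the choice between them.

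The E12 transcript held 27.1, 29.5 and 26.1% of TCF3 counts in HEK-293T siNegative libraries and 6.496, 10.2 and 10.7% in siHNRNPH1 libraries. In HT-1080 it held 31.8, 26.8 and 25.1% with siNegative and 19.2, 15.9 and 15.4% with siHNRNPH1. Every control was above every knockdown library in both lines. The E47 transcript went the other way, from 2.31, 0.822 and 1.66% to 18.9, 18.7 and 13.5% in HEK-293T. In HT-1080 it went from 13.9, 17.2 and 21.4% to 34.7, 35.6 and 31.9%. Again the groups did not overlap, and for each transcript and line the exact permutation test gave p = 0.1, the smallest possible with 3 against 3.

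The usage test by transcript called 3 of 69 transcripts of the 6 genes in HEK-293T (2.68% of all transcripts tested) and 7 of 55 in HT-1080 (7.04%). For E12 in HEK-293T the limma diffSplice BH-adjusted p was 4.52e-06, and for E47 it was 6.98e-12. In HT-1080 the limma diffSplice BH-adjusted p was 0.0305 for E12 and 6.26e-05 for E47. For the gene as a whole it was 1.42e-11 in HEK-293T and 1.84e-04 in HT-1080, and TCF3 kept its call in 6 of 6 leave-one-out fits in each line (8.77e-14 in HEK-293T without siHNRNPH1 replicate 1). On simulated data most calls of this test in HEK-293T were unchanged genes. With diffSpliceDGE the BH-adjusted p was 0.00135 in HEK-293T and 0.105 in HT-1080, so the HT-1080 call depends on the test.

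Taking the E12 and E47 transcripts alone, E47 made up 5.52% ± 2.61 (SD, n = 3) of the pair in HEK-293T siNegative cells and 65.0% ± 9.28 (SD, n = 3) in siHNRNPH1 cells. In HT-1080 the control cells already had 38.5% ± 7.80 (SD, n = 3), and siHNRNPH1 cells had 67.0% ± 2.35 (SD, n = 3). By this ratio the lines started apart and lay side by side after knockdown, with 55.9 to 74.4% in HEK-293T and 64.4 to 69.1% in HT-1080. The ratio leaves out the unassigned transcripts. In siNegative means, E12 and E47 held 27.6 and 1.60% of TCF3 in HEK-293T and 27.9 and 17.5% in HT-1080. With siHNRNPH1 they held 9.13 and 17.0% in HEK-293T and 16.8 and 34.0% in HT-1080. By these shares of the whole gene the lines did not lie side by side after knockdown. The usage response of TCF3 differed between the lines (limma diffSplice interaction, BH-adjusted p = 0.0184), the only 1 of the 6 genes to pass, where 3.39% of all genes did. That call was kept in 9 of 12 leave-one-out fits. It was lost without HEK-293T siNegative replicate 2 and without HT-1080 siNegative replicate 2 or 3 (BH-adjusted p up to 0.123).

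**Figure D3:**
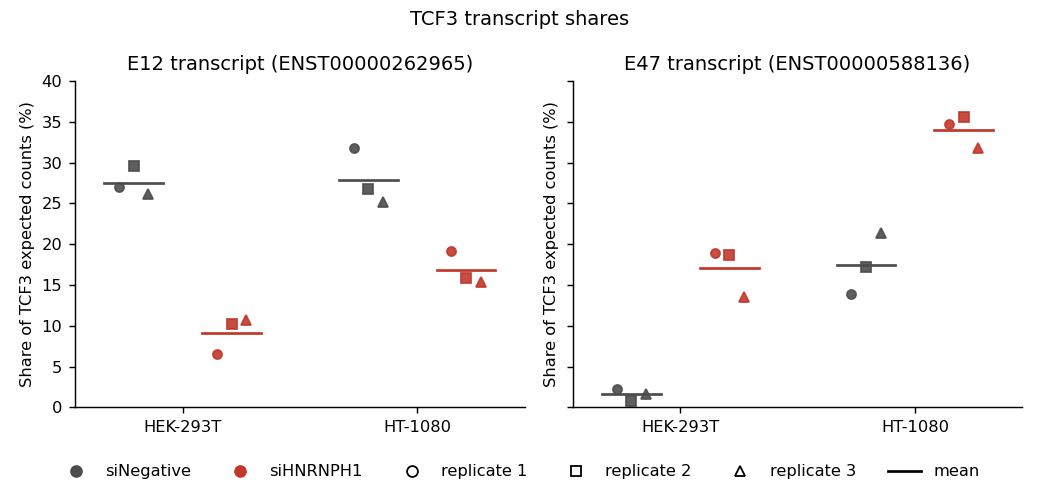
Share of TCF3 expected counts (%) held by the E12 transcript (left) and the E47 transcript (right) in each library, by line and siRNA, with the mean of 3 libraries as a line. With siHNRNPH1 the E12 share is lower and the E47 share higher in every library of both lines, and HEK-293T siNegative libraries hold at most 2.31% E47.

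Of the other TCF3 transcripts holding at least 5% of the gene in a group, ENST00000592628.5 was called in HT-1080, where it went from 5.13, 5.77 and 7.61% to 6.14, 1.39 and 0.243% (limma diffSplice BH-adjusted p = 0.00135). Its groups overlapped through siHNRNPH1 replicate 1. ENST00000593064.5, a main transcript in HEK-293T at 25.2 to 26.5% with siNegative, was at 24.1 to 29.1% with siHNRNPH1 there (limma diffSplice BH-adjusted p = 0.992). In HT-1080 it was at 4.45 to 7.75% and 3.98 to 12.4% (limma diffSplice BH-adjusted p = 0.486). In HEK-293T, ENST00000590684.5 held 8.68 to 14.0% with siNegative and 14.1 to 18.6% with siHNRNPH1 (limma diffSplice BH-adjusted p = 0.513). In HT-1080 its ranges overlapped, 12.1 to 13.7% and 11.3 to 14.4%.

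EWSR1 lost level in both lines, and its 4 main transcripts did not lose it evenly in HT-1080. ENST00000397938.7 went from 31.8, 32.2 and 31.2% of the gene to 25.8, 27.7 and 28.1%, and its own level fell by 0.76 on the log2 scale (edgeR BH-adjusted p = 5.30e-04). ENST00000406548.5 went from 29.4, 33.4 and 29.1% to 28.0, 26.7 and 26.9%, and its level fell by 0.71 (edgeR BH-adjusted p = 0.00205). Neither share passed the usage test (limma diffSplice BH-adjusted p = 0.0539 and 0.179), although the groups did not overlap.

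The other pair gained share. ENST00000469669.5 went from 11.8, 11.3 and 11.6% to 15.4, 15.01 and 16.2% (limma diffSplice BH-adjusted p = 0.0174), at a level log2 fold change of -0.11 (edgeR BH-adjusted p = 0.249). ENST00000483415.5 went from 13.9, 8.99 and 13.2% to 16.4, 16.6 and 17.5% (limma diffSplice BH-adjusted p = 0.00196), at a level log2 fold change of -0.05 (edgeR BH-adjusted p = 0.894). So the transcripts that gained share were those whose own level did not pass the test. A minor transcript below 5% of the gene, ENST00000331029.11, went from 4.35 to 3.00% in the group means (limma diffSplice BH-adjusted p = 0.04998, just under the threshold). The minor transcripts ENST00000483629.5 and ENST00000610553.1 fell in level by 0.97 (edgeR BH-adjusted p = 0.0482) and 0.52 (edgeR BH-adjusted p = 0.0453) on the log2 scale. As a gene, EWSR1 had a limma diffSplice BH-adjusted p of 0.00569 in HT-1080, kept in 5 of 6 leave-one-out fits and lost without siHNRNPH1 replicate 3 (0.0746). diffSpliceDGE did not call it (BH-adjusted p = 0.766).

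In HEK-293T the same transcripts split siHNRNPH1 replicate 1 from the rest. ENST00000483415.5 held 15.9, 15.2 and 16.1% with siNegative and 1.60, 19.5 and 21.4% with siHNRNPH1, so replicate 1 was far below and replicates 2 and 3 above the controls. ENST00000397938.7 held 33.7, 34.9 and 32.2% with siNegative and 40.7, 28.5 and 26.9% with siHNRNPH1, with replicate 1 on the other side. ENST00000406548.5 showed the same order, with 33.2% in replicate 1 against 25.1 and 22.9% in replicates 2 and 3 and 28.6 to 30.3% in controls. ENST00000469669.5 was above all controls (11.48 to 11.96%) in every siHNRNPH1 library, at 12.9, 17.6 and 18.6%. Usage of EWSR1 had a limma diffSplice BH-adjusted p of 0.453 in HEK-293T with all libraries and of 1.03e-08 without replicate 1.

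MADD usage was called in both lines, on different transcripts. In HEK-293T, ENST00000406482.5 went from 0.720, 1.39 and 2.81% of the gene to 13.1, 21.0 and 14.6%, with no overlap (limma diffSplice BH-adjusted p = 0.00153). In HT-1080 its shares were 4.89, 8.38 and 20.4% with siNegative and 17.2, 16.3 and 17.9% with siHNRNPH1, which overlapped (limma diffSplice BH-adjusted p = 0.196). There, ENST00000407859.7 went from 1.77, 5.74 and 12.5% to 17.1, 13.2 and 18.4% (limma diffSplice BH-adjusted p = 0.0113), while in HEK-293T it held at most 1.96% in any library.

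The siNegative libraries of HT-1080 differed widely among themselves for MADD. ENST00000402799.5 held 37.1, 24.0 and 8.22% in them, and 16.8, 16.6 and 14.9% with siHNRNPH1. ENST00000402192.6 was steadier, with 30.0, 32.8 and 37.2% against 31.8, 26.4 and 30.3%, and its own level rose by 0.49 on the log2 scale (edgeR BH-adjusted p = 0.0358). In HEK-293T these transcripts were the main ones, with ENST00000402799.5 at 39.1, 50.3 and 43.3% against 44.0, 26.2 and 36.0%. ENST00000402192.6 was at 43.0, 30.9 and 36.2% against 27.2, 29.0 and 28.5%, with no overlap but no call (limma diffSplice BH-adjusted p = 0.769).

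ENST00000349238.7 held 0.493, 3.51 and 1.98% against 0.487, 7.22 and 6.35% in HEK-293T, and 15.6, 13.2 and 9.87% against 5.55, 14.7 and 7.27% in HT-1080, with overlap in both lines. The minor transcript ENST00000395336.7 rose in level in HT-1080 (log2 fold change 1.44, edgeR BH-adjusted p = 0.0280).

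The MADD calls in usage depended on single libraries and on the test. In HEK-293T the gene had a limma diffSplice BH-adjusted p of 0.00374, which was kept in 3 of 6 leave-one-out fits and lost without any 1 of the siNegative replicates (up to 0.199) and in the F test of diffSplice (0.0513). Without siHNRNPH1 replicate 1 it was 2.08e-09. In HT-1080 it had 0.0285, which was kept in 2 of 6 and lost without siNegative replicate 1 or 2 or siHNRNPH1 replicate 1 or 3 (up to 0.362). It was also lost in the F test (0.0804), with transcripts of at least 5% of the gene alone (0.119) and with the replicate block (0.0615). The usage response of MADD did not differ between the lines in the test of that difference (limma diffSplice interaction, BH-adjusted p = 0.195), and without HEK-293T siHNRNPH1 replicate 1 it did (0.00711).

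**Figure D4:**
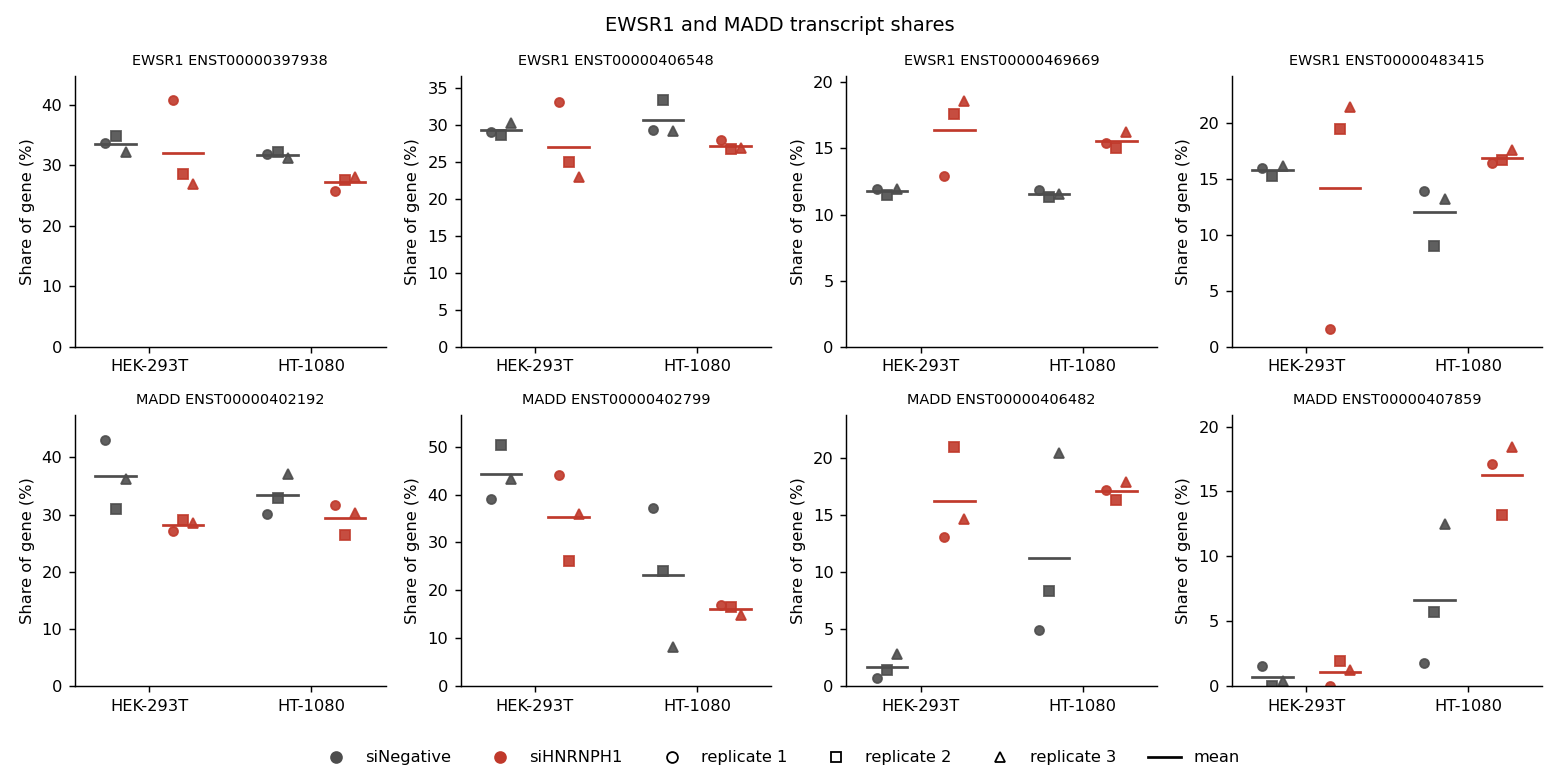
Share of the gene's expected counts (%) held by the 4 main EWSR1 transcripts (top) and 4 MADD transcripts (bottom) in each library, by line and siRNA, with the mean of 3 libraries as a line and vertical axes that start at 0. ENST00000483415 is at 1.60% in HEK-293T siHNRNPH1 replicate 1 against 19.5 and 21.4% in replicates 2 and 3, and ENST00000406482 is higher in every HEK-293T siHNRNPH1 library than in any control.

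ARAF and ERBB2 did not pass the usage test in either line with all libraries. The full-length ARAF transcript ENST00000377045.9 held 92.5, 92.8 and 92.3% of the gene in HEK-293T with siNegative and 94.99, 90.5 and 89.4% with siHNRNPH1. A shorter ARAF product, which keeps intron sequence and antagonises signalling, has been reported to form when HNRNPH is low. ENST00000377039.2 is the second most abundant listed transcript, and the tables do not say which product it encodes. It held 5.40, 4.88 and 4.90% in HEK-293T with siNegative and 2.27, 6.77 and 8.42% with siHNRNPH1, where replicate 1 was lowest and replicates 2 and 3 were highest of the 6. In HT-1080 it held 7.58, 6.93 and 7.72% and then 9.70, 7.35 and 9.01%, which overlapped (limma diffSplice BH-adjusted p = 0.675). As a gene, ARAF had a limma diffSplice BH-adjusted p of 0.916 in HEK-293T, 0.0223 there without siHNRNPH1 replicate 1, and 0.562 in HT-1080.

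ERBB2 was read mainly through ENST00000541774.5 in HEK-293T, which held 76.0, 80.5 and 79.4% with siNegative and 84.3, 69.1 and 72.2% with siHNRNPH1. Replicate 1 was above and replicates 2 and 3 below the controls. In HT-1080 the same transcript held 10.4, 31.7 and 41.0% with siNegative and 36.5, 32.8 and 20.3% with siHNRNPH1, so replicates of 1 group differed by more than the groups did. ENST00000269571.10, the main HT-1080 transcript, held 68.5, 38.7 and 39.6% and then 32.4, 37.7 and 49.4%. Its HEK-293T shares were 6.35, 4.76 and 3.16% with siNegative and 3.47, 11.4 and 6.47% with siHNRNPH1. ENST00000445658.6 held 12.9, 12.5 and 9.65% and then 8.96, 8.28 and 13.5% in HT-1080, and at most 0.632% in HEK-293T. ENST00000584450.5 held 0, 1.52 and 1.30% and then 8.51, 5.98 and 1.22% in HT-1080, and at most 0.532% in HEK-293T. As a gene, ERBB2 had a limma diffSplice BH-adjusted p of 0.635 in HEK-293T, 0.00805 there without siHNRNPH1 replicate 1, and 0.724 in HT-1080.

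For single transcripts, the level test of edgeR called 0 of the 69 transcripts tested in HEK-293T, where 0.248% of all transcripts passed. Of these, 13 had an unadjusted edgeR p under 0.05, and DESeq2 called 7. On simulated data this test made no call in HEK-293T. Without siHNRNPH1 replicate 1, edgeR called 17 of 74, against 16.0% of all transcripts. In HT-1080 it called 7 of 55, against 16.1%. Of these 3 rose and 4 fell, where 7.91% of all transcripts rose and 8.18% fell. The E47 transcript of TCF3 was among those that rose (log2 fold change 1.32, edgeR BH-adjusted p = 0.00341). In HEK-293T its log2 fold change was 3.65, with an edgeR BH-adjusted p of 0.0682. With MST1R left out, 25 transcripts held at least 5% of their gene in a group of either line. Shares did not overlap between the siRNAs for 7 of these 25 in HEK-293T. The HT-1080 count was 9. The same 25 were used for both lines, so some were below 5% in the line counted. Examples are ERBB2 ENST00000445658.6 in HEK-293T (group means 0.273 and 0.296%) and TCF3 ENST00000585731.5 in HT-1080 (0.265 and 2.29%). The background, 29.9% for HEK-293T and 27.9% for HT-1080, covers a different set per line, from genes whose mean count reached 50. These unlike sets cannot show whether the counts differ from the background.

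Full-length models added exon structures, with 1 pool per group, no replicates and no test. The labels describe each pool as pooled replicates without listing them. Any part of replicate 1 in the HEK-293T siHNRNPH1 pool cannot be taken out. Each model counts once, whatever its abundance, so the shares below are shares of distinct models and the exact (Clopper-Pearson) 95% intervals cover counting error only. Coordinates are those of the files, in build GRCh38.p13 per the submitters' processing notes. In the order HEK-293T siNegative, HEK-293T siHNRNPH1, HT-1080 siNegative and HT-1080 siHNRNPH1, the files held 46, 41, 20 and 15 models at EWSR1 and 7, 7, 14 and 18 at MADD. At ERBB2 they held 4, 2, 2 and 5, and at ARAF 1, 2, 1 and 1. At TCF3 and MST1R the model files used here held 0 models, so the E12 and E47 exons could not be read from them.

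EWSR1 exon 8, the exon whose exclusion HNRNPH1 has been reported to promote in some Ewing sarcoma fusion transcripts, spans 181 bases (chr22:29288606-29288786, + strand). A junction that skips it was seen in 0 of 46 HEK-293T siNegative models, 0 of 41 siHNRNPH1 models, 1 of 20 HT-1080 siNegative models and 0 of 15 siHNRNPH1 models. The upper bounds of the intervals were 7.71, 8.60, 24.9 and 21.8%. These bounds are over all models at the locus. Models that begin downstream of the start of exon 8 cannot show such a junction. Models that span the intron before exon 8 numbered 33, 27, 20 and 14, so in HEK-293T the bounds over those would be higher. The splice from the preceding exon into the start of exon 8 was carried by 63.0 and 65.9% of all HEK-293T models. In HT-1080 it was carried by 90.0 and 93.3% of all models, siNegative first. Models that began downstream of the start of exon 8 numbered 13 of 46 and 14 of 41 in HEK-293T and 0 of 20 and 1 of 15 in HT-1080.

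The region just after exon 8 was spliced in several ways. The 537-base intron at chr22:29291600-29292136 was retained in 20 of 40 informative HEK-293T siNegative models and 18 of 34 siHNRNPH1 models. In HT-1080 it was retained in 2 of 16 and 3 of 12 (12.5 and 25.0%), with intervals of 1.55 to 38.3% and 5.49 to 57.2%. The 3350-base stretch between exon 8 and the exon that begins at 29292137 was kept whole in 13 of 17 and 6 of 10 HEK-293T models and in 2 of 3 and 2 of 4 HT-1080 models, out of 36, 26, 19 and 13 models that span it. The 2778-base part of it that ends before an internal exon was kept in 20 of 25 and 10 of 17 HEK-293T models and in 4 of 10 and 3 of 6 HT-1080 models, out of 37, 27, 19 and 13 that span it. That exon has a second start, which makes the intron 2775 bases long. Counted against this start, it was kept in 20 of 28 and 10 of 15 HEK-293T models. The HT-1080 counts were 4 of 10 and 3 of 8. Each count leaves out models spliced to the other start. The 1471-base intron before exon 8 was retained in 4 of 33 HEK-293T siNegative models and 0 of 27 siHNRNPH1 models (intervals 3.40 to 28.2% and 0 to 12.8%). It was retained in 1 of 19 and 0 of 14 HT-1080 models. For each of these introns, the intervals of the siRNAs overlapped within a line.

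MADD exon 16 is a 60-base cassette exon (chr11:47288968-47289027, + strand) whose inclusion has been linked to the pro-apoptotic form of the protein, and HNRNPH has been reported to favour its skipping in glioma cells. It was included in 0 of 7 and 0 of 5 informative HEK-293T models. In HT-1080 it was included in 3 of 11 siNegative models (interval 6.02 to 61.0%) and 8 of 16 siHNRNPH1 models (interval 24.7 to 75.3%). The share was higher with siHNRNPH1 in HT-1080, but the intervals overlapped widely. A 70-base exon (chr11:47326738-47326807) was included in all 7 models of each HEK-293T pool, in 13 of 14 HT-1080 siNegative models and in 12 of 17 siHNRNPH1 models (92.9 and 70.6%), again with overlapping intervals. An alternative donor that lengthens an earlier exon by 129 bases (chr11:47285066-47285194) was used in 4 of 7 and 3 of 5 HEK-293T models and in 7 of 10 and 8 of 16 HT-1080 models. Another donor, which adds 12 bases (chr11:47295568-47295579), was used in 5 of 7 and 6 of 6 HEK-293T models and in 8 of 10 and 13 of 14 HT-1080 models, siNegative first, with overlapping intervals. Donor sites were added to the kinds of event after the models were seen.

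**Figure D5:**
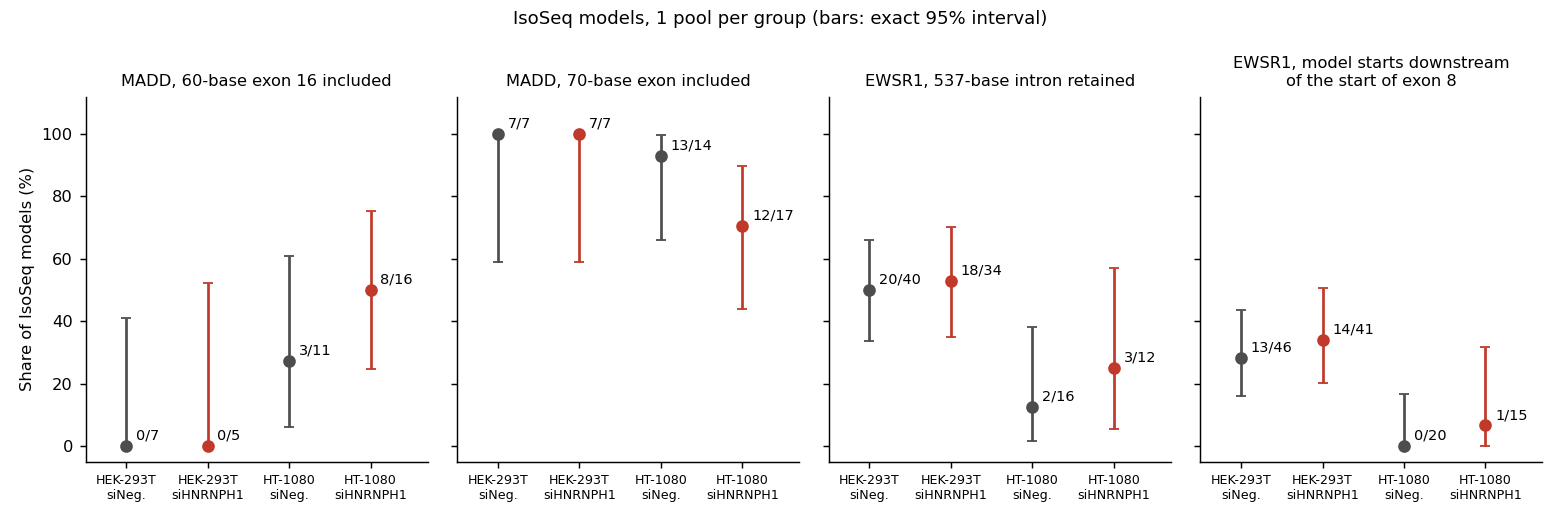
Share of IsoSeq models (%) with a MADD or EWSR1 event in each pool, with exact 95% intervals (counting error only). Labels give the number of models with the event over the number informative. For EWSR1 model starts they give it over all models at the locus. MADD exon 16 appears in HT-1080 models only, and EWSR1 models that start downstream of the start of exon 8 are mostly from HEK-293T.

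ERBB2 exon 16, a 48-base exon (chr17:39719787-39719834) whose loss gives a more active receptor form, was carried by 3 of 4 HEK-293T siNegative models and skipped by 1. With siHNRNPH1 it was carried by 1 and skipped by 1 of 2. In HT-1080 it was carried by 1 of 2 siNegative models, the other ending before it, and by 5 of 5 siHNRNPH1 models. Such small numbers of models show only that both forms were present in HEK-293T. ARAF had 1 model of 16 exons in every pool, with the same internal exons. The HEK-293T siHNRNPH1 pool had 1 further ARAF model, of 2 exons, that ends in a 3739-base exon (chrX:47562234-47565972) running through the positions of exon 2 (chrX:47562909-47563063) to exon 6 (chrX:47565252-47565350) and the introns between them. It is 1 model in 1 pool, and its abundance is not in the file. That pool held the most models over all loci, 94847 against 64705 in HEK-293T siNegative. The HT-1080 pools held 72186 (siNegative) and 68078 (siHNRNPH1).

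Genes related to the 6 by pathway or family were taken from a fixed list of 36. In HEK-293T all 36 were tested, and GRB2 was higher and TAF15 and ERBB3 were lower (GRB2 and ERBB3 are named after their values were seen), where 10.0% of all genes were called. In HT-1080, 28 were tested, and 12 were higher and 11 lower, where 32.7% of all genes were higher and 32.6% lower. The counts by group below are of few genes and have these same shares as their background. The median log2 fold change of the list was -0.01 in HEK-293T and -0.09 in HT-1080, against 0.02 and 0.01 for all genes tested. TAF15, a FET family relative of EWSR1, was the only listed gene called in both lines, with log2 fold changes of -2.09 (SE 0.11, edgeR BH-adjusted p = 0.00335) in HEK-293T and -0.77 (SE 0.04, edgeR BH-adjusted p = 1.94e-07) in HT-1080.

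Of the dimer partners and inhibitors of TCF3 (TCF4, TCF12 and the ID proteins), all 5 that were tested fell in HT-1080, with a median log2 fold change of -0.46. Of the RAB3 cycle genes and death receptors around MADD, 6 of 8 rose and 2 fell in HT-1080. Of the RAF cascade around ARAF, 3 of 7 rose and 2 fell in HT-1080. Of the ERBB2 relatives, ligand and adaptors, 2 of 4 tested rose in HT-1080, and in HEK-293T GRB2 rose (log2 fold change 0.75, edgeR BH-adjusted p = 0.0171) and ERBB3 fell (log2 fold change -1.44, edgeR BH-adjusted p = 0.00645).

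For each of the 6 genes, the genes whose log2(CPM + 1) followed it most closely across the 12 libraries were found among 12173 genes. The correlations are descriptions over libraries that share 2 lines and 2 siRNAs, and no p is given. They were ATAD3A (Pearson r 0.978) and SPNS1 (0.965) for ARAF, and SEZ6L2 (0.978) and NAGLU (0.969) for TCF3. TPCN2 (0.995) and GTF2H3 (0.992) followed EWSR1 most closely. For MADD they were FAM214A (0.990) and an unnamed gene (0.989), and for ERBB2 SLC25A42 (0.997) and CFAP36 (0.993). For MST1R, whose counts were below the minimum used for the others, they were NUP214 (0.948) and MATR3 (0.935).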

How the data were processed

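Per the labels, the short-read values deposited by the authors are expected counts per transcript from RSEM, in 1 table per line. The submitters' processing notes name RSEM and build GRCh38.p13. Aligner, annotation release and strandedness are not given in the sources used here. RSEM divides reads shared by transcripts of a gene by a model, so transcript shares carry more error than gene sums. The IsoSeq files deposited by the authors list exon positions of transcript models, with no counts.

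Expected counts were summed per gene, rounded and filtered (filterByExpr), and scaled by TMM. Gene and transcript levels were tested with edgeR 4.0.16 (quasi-likelihood, two-sided), usage with limma 3.58.1 diffSplice on voom weights (Simes p per gene), all BH-adjusted over all features tested, threshold 0.05, separately by line on 6 libraries. Differences between lines were interactions over 12 libraries. DESeq2 1.42.0 was an alternative. On simulated data most usage calls in HEK-293T, and a smaller part in HT-1080, were genes with no change, and the HEK-293T transcript-level test made no call. CPM divides by the library total.

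The genes and lists were chosen with earlier results of these data known. The transcripts described are the 4 largest of each gene by mean share, MST1R left out, among those holding at least 5% of it in a group, and any other called in level or usage with all libraries. Likeness used genes whose mean count reached 50 in both lines, with a pseudocount of 1 CPM. All 6 symbols matched a reference table of gene names. 1 gene of the related list is not reported here.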

Additional observations from a re-analysis of the deposited data

Results flagged for a closer look

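The gene-level response of MADD differed between the lines: its log2 fold change was 0.76 higher in HT-1080 than in HEK-293T (edgeR interaction, BH-adjusted p = 0.00435), and 0.65 higher without HEK-293T siHNRNPH1 replicate 1 (BH-adjusted p = 4.14e-07). All 3 HT-1080 knockdown libraries were above their controls, while the HEK-293T knockdown libraries lay on both sides of 70.7 CPM, the lowest control there. The response of ERBB2 was 0.73 higher in HT-1080 (edgeR interaction, BH-adjusted p = 0.0129), and 0.89 higher without that library (BH-adjusted p = 1.19e-08). Both calls were kept under every alternative that was run.

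The usage response of TCF3 differed between the lines on the log2 scale (limma diffSplice interaction, BH-adjusted p = 0.0184). The E47 transcript held 5.52% of the E12 and E47 pair in HEK-293T controls and 38.5% in HT-1080 controls, against 65.0 and 67.0% with siHNRNPH1. By this ratio, which leaves out the other TCF3 transcripts, the control groups lay further apart than the knockdown groups. Shares of the whole gene did not show this. E47 held 1.60% in HEK-293T and 17.5% in HT-1080 controls, and 17.0 and 34.0% with siHNRNPH1. E12 held 27.6 and 27.9% in controls, and 9.13 and 16.8% with siHNRNPH1.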

How the results depend on the processing

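The number of the 6 genes called in HEK-293T depended on single libraries. Leaving out 1 library gave 0 to 3 genes by level (main 1), 1 to 5 by usage (main 2) and 0 to 17 transcripts by level (main 0, DESeq2 7). In HT-1080 it gave 5 genes by level in every such fit, 1 to 3 by usage (main 3) and 3 to 6 transcripts by level (main 7). Transcripts called in HT-1080 numbered 4 with no filter on low counts and 11 with DESeq2, and the fit to all 12 libraries called 3 genes by level. By usage, the F test called 1 gene in HEK-293T, and diffSpliceDGE called 1 there and 0 in HT-1080. The response differed between lines for 2 to 4 genes by level (main 2) and for 0 to 3 by usage (main 1); those last fits were chosen after the data were seen. The cause was not tested.

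Small log2 fold changes turned sign. Over the leave-one-out fits in HEK-293T, ARAF ran from -0.34 to 0.13, TCF3 from -0.0101 to 0.25, MST1R from -0.19 to 0.0824 and ERBB2 from -0.19 to 0.0106. In the fit to all 12 libraries ARAF was at 0.0495 and ERBB2 at 0.0121. The difference between lines ran from -0.41 to 0.12 for ARAF, from -0.0451 to 0.27 for TCF3 and from -0.28 to 0.51 for MST1R. MADD, ERBB2, TCF3 and EWSR1 in HT-1080 and EWSR1 in HEK-293T kept their direction in every alternative run.

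Replicate numbers did not pair the samples: deviations of same-numbered libraries correlated at -0.0557 to 0.0550. With the replicate block, genes called by level were 0 in HEK-293T and 5 in HT-1080, and transcripts called in HT-1080 were 3. By usage the block called 2 genes in each line, without MADD in HT-1080. With a denominator of all models that span it, the 3350-base EWSR1 stretch was kept in 36.1% of HEK-293T siNegative and 23.1% of siHNRNPH1 models. Low counts limit MST1R in both lines.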
